A study of Drosophila melanogaster with 103 samples.

Results

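Sox proteins are transcription factors that bind DNA through an HMG box and take part in the choice of cell fate in the nervous system, gut, gonads and other tissues. Many genes of this kind are targets of Polycomb group (PcG) repression, in which PRC2 places H3K27me3 on histone H3, PRC1 places H2AK118ub1 on histone H2A, and DNA-binding factors such as Pho hold the complexes at Polycomb response elements. Trithorax (Trx) is a histone methyltransferase that opposes this silencing and is cut into an N-terminal and a C-terminal fragment.

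The 8 Sox family genes of Drosophila melanogaster are described here: Dichaete (D), SoxN, Sox21a and Sox21b of group B, Sox100B of group E, Sox14 of group C, Sox15 of group F and Sox102F of group D. They are 8 of 13946 protein-coding genes and were taken by name. Each was studied over its gene body in genome build dm6 plus 10 kb on each side, called its window.

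Chromatin immunoprecipitation with sequencing had been done on 103 libraries of 3 unperturbed cultured lines, with no treatment or mutation named. D17 (ML-DmD17-c3) came from imaginal discs and had 41 libraries, S2 (S2-DRSC) came from embryos and had 41, and Kc167, also embryonic, had 21. Every antibody had 2 replicates in a line, which the labels' protocols describe as fixed from different flasks, and each line had 1 input. The deposited data were 50 peak lists, 1 per antibody and line, 20 for D17, 10 for Kc167 and 20 for S2.

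No list kept values per replicate, so the spread between replicates and the sequencing depth are unknown and no difference between lines could be tested. Every fold below is the authors' enrichment value of a peak, which describes and ranks peaks within a list. Its percentile is the share of peaks in the same list with a fold no higher. Lists differ in length and a percentile in one line is therefore not a measure of change against another. The disc genes vg, Dll, nub and ara lay under H3K27me3 over at least 50% of the body in every line, and ap and bi in Kc167 and S2 only, at 13.6% and 14.6% in D17. Of 8 blood cell genes, 5 had H3K27ac, a mark of active promoters and enhancers, within 500 bp of a gene end in D17, 2 in Kc167 and 4 in S2, against 54.8%, 53.5% and 52.1% of coding genes. These marks are not expression, and the tissue labels cannot be checked further here.

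The family divided mainly by its repressive mark. D, SoxN, Sox21a and Sox21b lay under H3K27me3 in all 3 lines, Sox14 had no H3K27me3 peak in its window in any of them, and Sox100B, Sox15 and Sox102F differed between the lists. In D17, 5 of 8 genes had H3K27me3 over at least 50% of the body (D, SoxN, Sox21a, Sox21b and Sox15), against 7.65% of all coding genes. In Kc167 it was 7 of 8, all but Sox14, against 15.4%. In S2 it was 6 of 8, against 16.1%, with Sox14 and Sox15 outside. A peak number is skipped over all of Sox15 in the S2 list, so its absence there cannot be read as a difference. All 3 shares stood above their backgrounds. D, Sox21a and Sox21b are neighbours and are not separate observations.

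Marks of active genes were listed for fewer members. H3K27ac appeared in the windows of Sox100B, Sox14 and Sox15 in each line and of no other member, 3 of 8 against 81.6% of coding genes in D17, 77.9% in Kc167 and 78.7% in S2. H3K36me3, which marks the bodies of transcribed genes, covered at least 50% of the body of 0 of 8 members in every line, against 45.7% of genes in D17, 42.4% in Kc167 and 41.7% in S2. A peak number is skipped over the whole body of Sox100B in each H3K36me3 list and of Sox15 in the D17 list. A peak may have been removed there, so these absences cannot be read. The highest listed coverage belonged to Sox14, at 41.5% of the body in the D17 list, 22.8% in the Kc167 list and 42.6% in the S2 list. At a gene end, within 500 bp, H3K27ac was present for Sox100B and Sox14 in D17 (2 of 8, background 54.8%), for Sox14 and Sox15 in Kc167 (2 of 8, 53.5%) and for Sox14 alone in S2 (1 of 8, 52.1%). H3K4me3, a promoter mark, met an end of Sox14 only, in both lines where it was profiled (1 of 8, against 50.7% in D17 and 50.4% in S2).

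**Figure D1:**
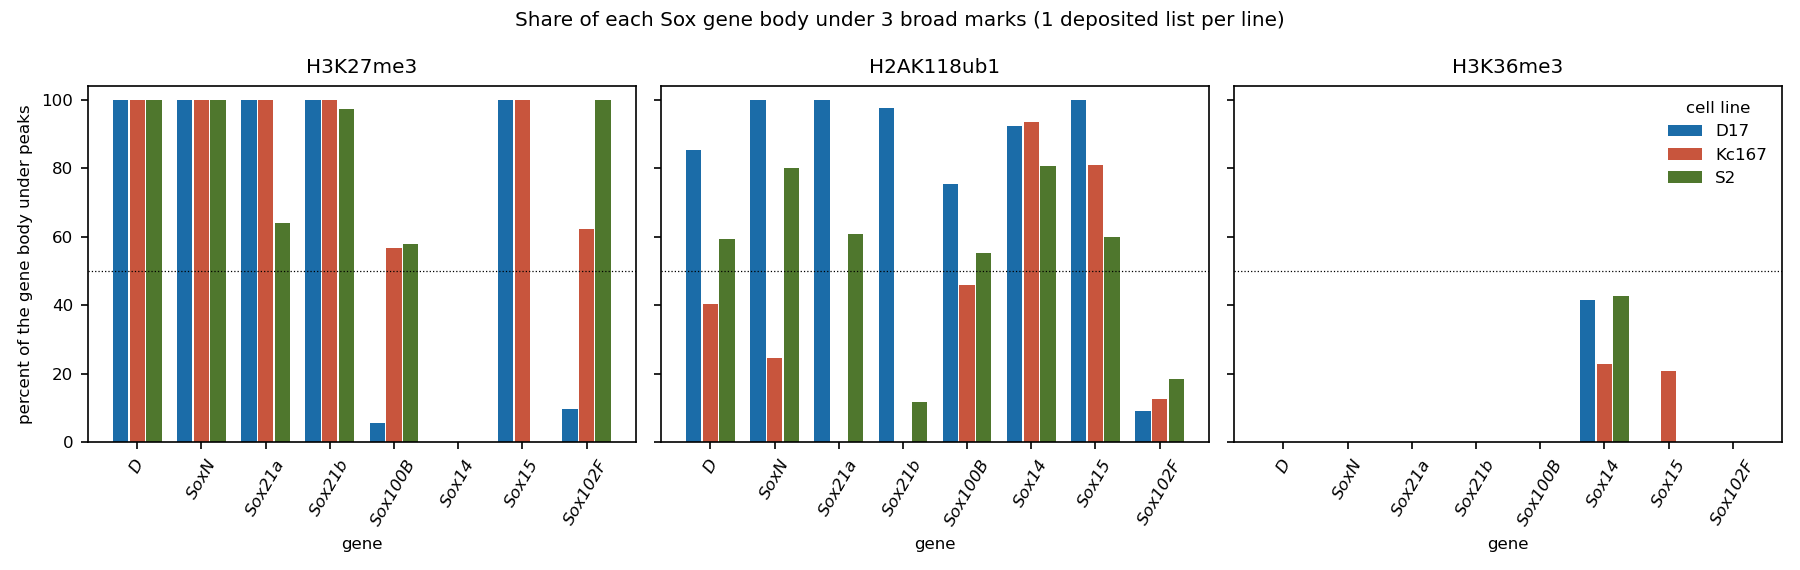
Percent of each Sox gene body (vertical axis) under deposited peaks of H3K27me3, H2AK118ub1 and H3K36me3, with 1 bar per line: blue for D17, red for Kc167 and green for S2. The dotted line marks 50%; there are no error bars because each bar is 1 list. Sox14 has no H3K27me3 bar, and Sox15 has none in S2, where a peak number is skipped over the whole gene.

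PcG proteins were listed near most members. A PcG site, meaning a peak of the PRC1 subunit Ph overlapped by peaks of Pc, Psc and Pho, lay in the window of 7 of 8 genes in D17 (background 5.08%), 7 of 8 in Kc167 (41.3%) and 7 of 8 in S2 (7.97%). Sox14 was the exception in D17, and Sox21a in Kc167 and S2. In all, 329 of the 400 pairs of a gene and a list held a peak. Sox100B held one in 50 of 50 lists, Sox15 in 48, Sox14 in 43, Sox102F in 41, Sox21b in 39, SoxN in 38, D in 37 and Sox21a in 33. The median coding gene held one in 31. Counts by antibody follow, with the share of all coding genes that had a peak in a window made the same way. Among the 4729 coding genes with body lengths in the members' range, window shares were mostly higher. Examples were 53.1% for a PcG site in Kc167, 80.4% for Kc167 Ph, 65.8% for D17 GAF and 84.8% for S2 Rad21.

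Ph, Psc, Spps and TrxC had a peak in the window of 8 of 8 genes in every line. The backgrounds in D17, Kc167 and S2 were 45.7%, 69.3% and 52.9% for Ph, and 33.0%, 76.9% and 63.1% for Psc. They were 54.5%, 85.8% and 68.2% for Spps, and 63.7%, 77.9% and 45.5% for TrxC. In Kc167, 8 of 8 stood least above the background for each of these proteins. Pc was found at 7 of 8 genes in D17 (19.6%), 8 of 8 in Kc167 (71.0%) and 7 of 8 in S2 (22.9%), missing Sox14 in D17 and Sox21a in S2. Pho was found at 8 of 8 in D17 (44.8%) and 7 of 8 in Kc167 (75.1%) and S2 (51.2%), missing Sox21a in both. Sfmbt had 8 of 8 in D17 (34.7%) and 7 of 8 in S2 (61.6%), again without Sox21a. Scm, which links PRC1 and PRC2, had 7 of 8 in D17 (27.6%), without Sox14, and 6 of 8 in S2 (15.3%), without Sox14 and Sox21a. E(z), Pcl and GAF met 8 of 8 in both lines where they were profiled. The backgrounds were 33.1% and 38.7% for E(z) in D17 and S2, 51.3% and 82.0% for Pcl, and 54.4% and 57.8% for GAF. TrxN met 5 of 8 in D17 (61.8%), missing D, SoxN and Sox15, and 8 of 8 in S2 (72.4%). Engrailed met 6 of 8 in D17 (25.4%) and Rad21 7 of 8 in S2 (75.5%).

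Among the marks, H3K27me3 touched the window of 7 of 8 genes in D17 (20.9%), 7 of 8 in Kc167 (44.1%) and 6 of 8 in S2 (43.4%). H2AK118ub1 touched 8 of 8 in D17 (69.2%), 7 of 8 in Kc167 (35.0%) and 8 of 8 in S2 (48.0%). H3K4me2 touched 8 of 8 in D17 (88.1%) and 6 of 8 in S2 (78.2%), missing Sox21a and Sox21b. H3K4me3 touched 3 of 8 in D17 (74.7%) and in S2 (74.4%), and H3K36me3 3 of 8 in D17 (76.4%), Kc167 (74.0%) and S2 (73.7%), each time Sox100B, Sox14 and Sox15. At Sox100B and Sox15 these peaks lay mostly over neighbouring genes such as dco and RpS23. The exceptions were a D17 H3K4me3 peak on Sox100B and a Kc167 H3K36me3 peak that reached Sox15. H3K36me2 touched Sox100B and Sox15 in D17 (2 of 8, 46.0%) and, in S2, also Sox14 and Sox102F (4 of 8, 74.1%).

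The order by strength was another: of the 32 protein lists, Sox21b stood at or above the 95th percentile in 18, SoxN in 17, Sox100B in 14, Sox102F in 10, Sox21a in 7, D in 5, Sox15 in 3 and Sox14 in 1. The median coding gene did so in 0 lists, and the 90th percentile of genes was 4. The windows of Sox21a and Sox21b share the peaks between the genes, which are counted for both. All 7 lists of Sox21a came from there. For Sox21b, the lists of D17 Pcl, TrxC and TrxN, Kc167 TrxC, and S2 E(z) and TrxC reached the 95th percentile only there. The first place of Sox21b in this order thus rests on shared peaks.

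**Figure D2:**
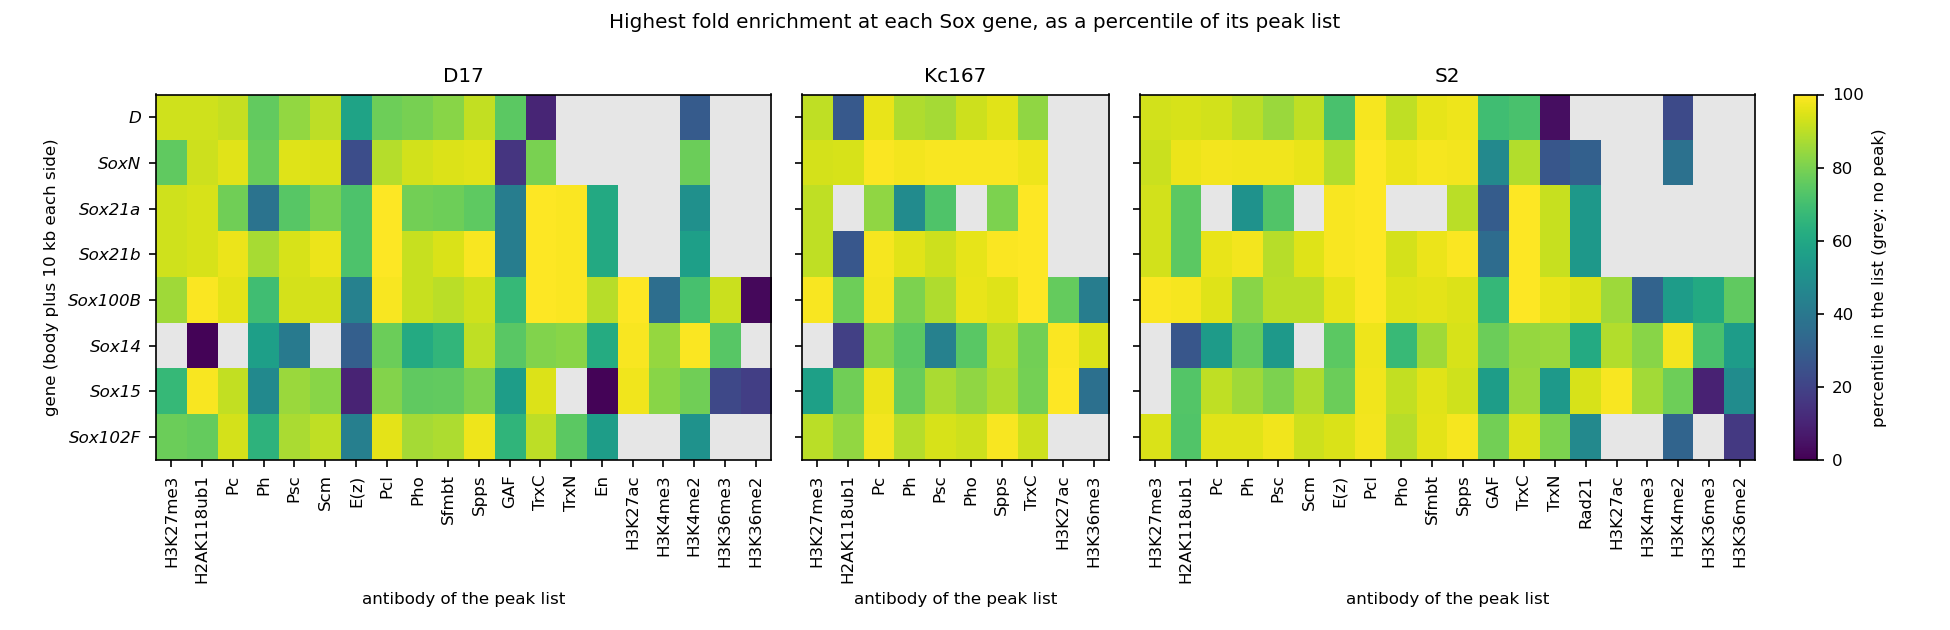
Highest fold in each gene's window as a percentile of its list (colour, 0 to 100), with genes as rows and antibodies as columns, one panel per line; grey cells have no peak. SoxN and Sox21b are brightest over the PcG columns, Sox14 has no H3K27me3 cell in any panel, and the H3K27ac column is filled for Sox100B, Sox14 and Sox15.

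The group B genes were the members with H3K27me3 listed over most of the body in every line, while their H2AK118ub1 coverage varied between lists. Dichaete acts in segmentation and in neural progenitors, and SoxNeuro (SoxN) is needed for neuroblasts to form. H3K27me3 covered 100.0% of both bodies in each of the 3 lines, and neither window held H3K27ac or H3K36me3. Neither held H3K4me3 in D17 or S2, where that mark was profiled. No other coding gene lay in the window of SoxN.

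SoxN (chr2L:8825645-8829670) carried one leading site that straddled its lower-coordinate end. Summits of the protein lists fell within chr2L:8825302-8825569 in every line. Folds there in D17 were 9.60 for Pho, 14.8 for Psc, 8.85 for Ph and 12.2 for Spps, an Sp1-like factor that acts with Pho. In Kc167 the same antibodies gave 43.7, 32.9, 26.5 and 29.0, and in S2 28.5, 32.6, 21.6 and 45.1. Within their own lists these were high everywhere, at percentiles of 93.3 (D17), 99.0 (Kc167) and 96.9 (S2) for Pho. Sfmbt, the partner of Pho, had a fold of 11.4 in D17 and 39.3 in S2, at percentiles of 94.8 and 98.7. GAF, the GAGA factor that opens chromatin, was weak at this site, with folds of 2.35 in D17 and 7.12 in S2 at percentiles of 8.88 and 47.0. H3K4me2 overlapped the site in both lines where it was profiled, with folds of 4.87 in D17 and 2.70 in S2. Around the site, the H3K27me3 peak ran for 50.2 kb in D17 and 66.7 kb in Kc167, where SoxN was the one coding gene beneath it. In S2 the peak ran for 191 kb over 15 coding genes, a width at the 99.9th percentile of that list. H2AK118ub1 filled the body in D17, as a peak of 146 kb, covered 24.6% of it in Kc167 and 80.1% in S2.

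D (chr3L:14175610-14178620) had its leading site inside the body, with summits between chr3L:14177655 and chr3L:14177952. Of 13 D17 protein lists 11 held a peak in the window, of 6 in Kc167 all 6, and of 13 in S2 12. At the site, Pho had folds of 3.79 (D17), 9.69 (Kc167) and 10.7 (S2), and Spps had 7.92, 14.3 and 28.6. GAF was high there in fold, 25.7 in D17 and 20.3 in S2, but such folds were common in its lists, at percentiles of 74.7 and 69.5. D and SoxN therefore shared the PcG proteins, while the GAF fold at D was above that at SoxN in both lists. Among the protein lists, the weakest signals of D were TrxC in D17 (1.55, percentile 10.4) and TrxN in S2 (1.58, percentile 3.52). D was also the one member without a peak of the cohesin subunit Rad21 in S2.

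Sox21a (chr3L:14103481-14108118), which drives differentiation of intestinal stem cell progeny in the adult midgut, and Sox21b (chr3L:14112405-14131324) lie 4286 bp apart, and Sox21b lies 44285 bp from D. Their windows overlap and share peaks. In D17 a single H3K27me3 peak of 101 kb ran over Fbp1, Sox21a, Sox21b, D and nan. The Kc167 peak was 114 kb and reached further, to nuf and saturn. In S2 the domain was broken: a peak of 76.6 kb ran from within Sox21b over D and nan, a separate peak of 2.97 kb lay in Sox21a, and another of 22.9 kb lay over btl, CG8100 and Fbp1. H3K27me3 thus covered 64.1% of Sox21a in S2 against 100.0% in D17 and Kc167, and 97.4% of Sox21b. H2AK118ub1 differed more in extent. It covered 100.0% of Sox21a and 97.5% of Sox21b in D17, 0.0% and 0.201% in Kc167, and 60.9% and 11.7% in S2. In Kc167 the mark was confined, among D, Sox21a and Sox21b, to peaks of 1.22 kb in D and 1.89 kb at the upper end of Sox21b.

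**Figure D3:**
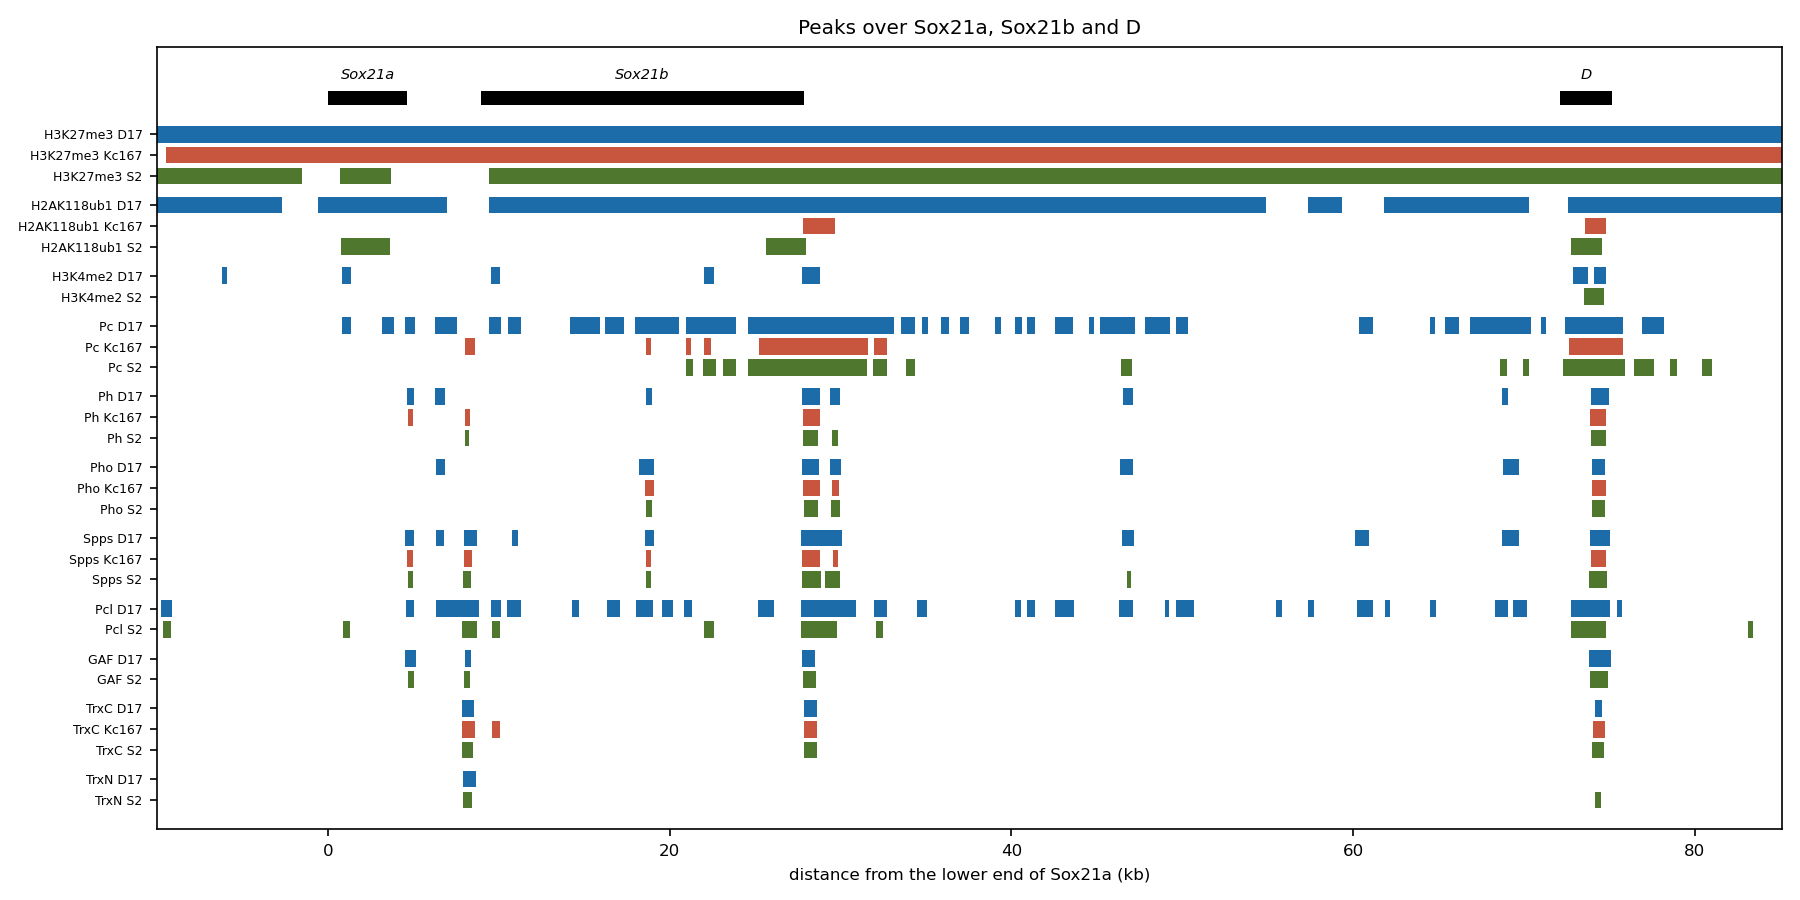
Deposited peaks (bars) from Sox21a through Sox21b to D, with gene bodies in black at the top and distance from the lower end of Sox21a in kb on the horizontal axis; each row is 1 list, blue for D17, red for Kc167 and green for S2. Bars of different proteins stack at the upper end of Sox21b and in D in each line, the 2 Trx fragments stack between Sox21a and Sox21b, and the S2 H3K27me3 row is broken at Sox21a.

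Between Sox21a and Sox21b lay a site led by PRC2 and Trx and not by Pho. At chr3L:14111610-14111636, Pcl, a subunit that helps PRC2 to bind DNA, had a fold of 79.3 in D17, rank 1 of 4065 peaks in that list. That D17 peak also ran over a separate D17 PcG site at chr3L:14109762-14110350, where Pho had a fold of 3.62. In S2 the Pcl fold was 23.3, rank 16 of 15159. TrxC had folds of 16.3 in D17, 15.3 in Kc167 and 17.7 in S2, ranks 20 of 5555, 7 of 6860 and 6 of 2719. TrxN had folds of 9.41 in D17 and 9.09 in S2, and E(z), the enzyme of PRC2, 4.45 and 9.67. Pho had no peak at the site in any line, and Pc had one in Kc167 alone, with a fold of 2.85. Psc and Spps were present in each line at moderate rank, at percentiles between 72.6 and 89.6. Neither H3K27ac nor H3K4me3 was listed in the window. H3K27me3 overlapped the site in D17 and Kc167 and not in S2.

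A site of the other kind lay just past the upper end of Sox21b, at chr3L:14131517-14131854. Spps had folds of 32.5 in D17, 39.9 in Kc167 and 66.2 in S2, at percentiles of 99.0, 99.6 and 99.3. Pho had folds of 8.08, 19.0 and 15.4 and Pc 12.4, 16.5 and 15.6 in the same order. Pc, Ph, Psc and Pho thus had peaks there in each line. TrxN had none in D17 or S2, the lines where it was profiled, and TrxC had folds of 2.69, 5.05 and 3.37. Sox21b had 23 places where summits of 1 or more protein lists fell within 500 bp of each other, the most of any member, and 9 of these had summits in all 3 lines. D had 13 such places, of which 1 was in all 3 lines and 11 in a single line. Between the windows of Sox21b and D, the D17 lists of Pc and Pcl held 9 and 10 peaks. The Kc167 list of Pc held 0 and the S2 list 1, while S2 Pcl held 0.

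Sox100B (chr3R:31065253-31083407), a relative of mammalian SOX9 that is needed in the developing testis, carried repressive and active marks at different positions. H3K27me3 covered 5.81% of the body in D17, 56.8% in Kc167 and 57.8% in S2. In both embryonic lines the peak over the lower part of the gene had nearly the same ends, 12.4 kb from chr3R:31061664 to chr3R:31074102 in Kc167 and from chr3R:31061770 to chr3R:31074201 in S2. Its fold was 2.67 and 2.71, at percentiles of 99.1 and 99.4, the highest H3K27me3 folds of any member in those lists. In D17 the peak in that place was 2.83 kb with a fold of 1.66 and ended before the gene body. A further H3K27me3 peak began in the upper part of the gene in each line and ran outward. It was 114 kb in D17, rank 10 of 1076 by width, over 11 coding genes, but its fold was 1.51, rank 894 of 1076 by fold. The Kc167 and S2 peaks from that place were 31.8 and 47.3 kb, with folds of 1.79 and 1.80, ranks 194 of 1739 and 163 of 1625 by fold. H2AK118ub1 in D17 covered 75.3% of the body in peaks of 14.0 and 8.65 kb with folds of 2.33 and 2.36, at percentiles of 99.2 and 99.3. In Kc167 it covered 46.0% and in S2 55.3%. In the lower part of the gene body D17 thus listed H2AK118ub1 and no H3K27me3.

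The leading site of Sox100B lay between the gene and dco, which encodes a casein kinase. TrxC had folds there of 40.5 in D17, 18.9 in Kc167 and 18.8 in S2, ranks 4 of 5555, 2 of 6860 and 5 of 2719. Pcl had a fold of 20.5 in D17 and 15.0 in S2, at percentiles of 98.9 and 99.6. Pho was modest, with folds of 3.92, 7.17 and 4.95. H3K27ac peaks over dco reached into the place of the TrxC summits, chr3R:31060891-31061543, in each line, with folds of 4.64, 4.81 and 4.72. H3K4me3 peaks over dco also reached it in D17 and S2, with folds of 7.97 and 7.36. The leading site was therefore not apart from the active marks of dco. Toward Sox100B, summits of Pc, Ph, Pho and Psc followed at chr3R:31062088-31062530 in each line, under H3K27me3. The D17 TrxC peaks at Sox100B were also wide. One of 18.8 kb ran out from the upper part of the gene, nearly all of it within the 114 kb H3K27me3 peak, rank 37 by width of 5555 peaks whose median is 0.915 kb. In Kc167 and S2 the widest TrxC peaks in the window were 2.23 and 3.06 kb.

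**Figure D4:**
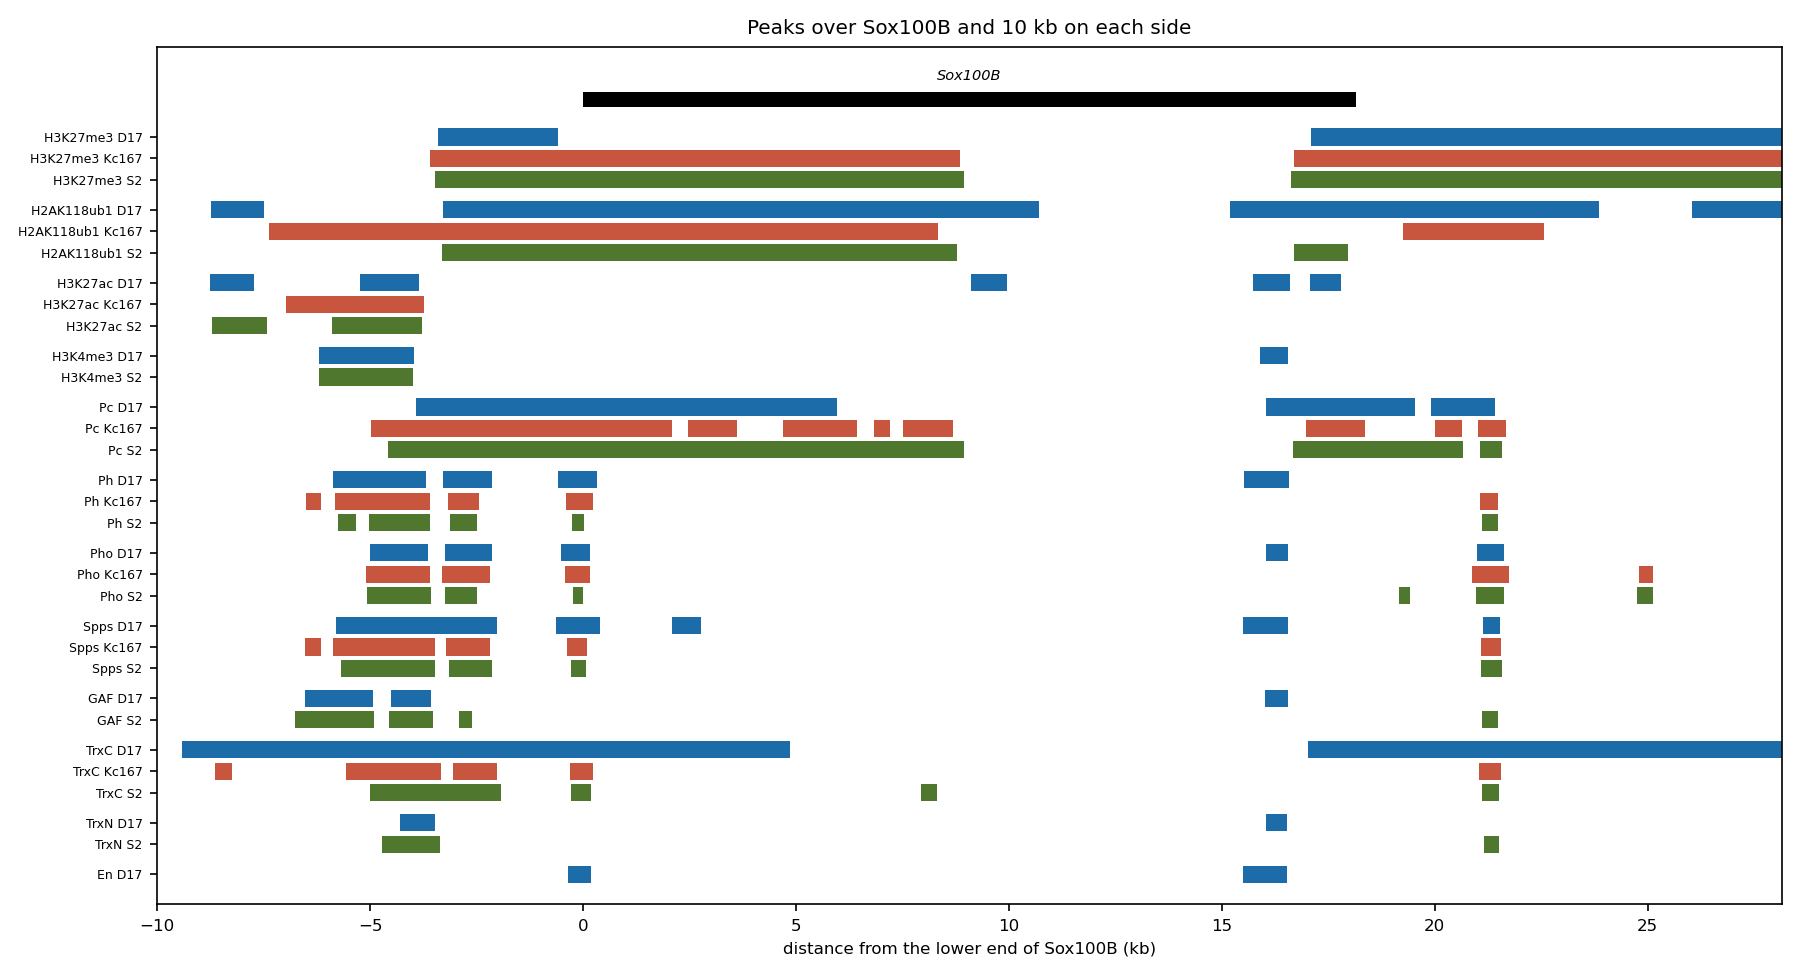
Deposited peaks (bars) over Sox100B (black) and 10 kb on each side, with distance from the lower end of the gene in kb on the horizontal axis; each row is 1 list, blue for D17, red for Kc167 and green for S2. Peaks of D17 stack at about 16.2 kb with H3K27ac and H3K4me3, where Kc167 and S2 have none, and the H3K27me3 bar over the lower part of the gene body is missing in D17, while a bar at the upper end is drawn in each line.

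One place of Sox100B was listed in D17 alone. At chr3R:31081485-31081493, inside the body, summits of 12 of the 13 D17 protein lists fell within 9 bp, every protein but TrxC. An H3K27ac peak lay over it with a fold of 11.0, rank 10 of 12299, together with H3K4me2 (fold 3.88), H3K4me3 (5.02) and H2AK118ub1 (2.36). The protein folds were low for their lists, from 1.61 for TrxN to 2.56 for E(z), at percentiles from 3.54 for GAF to 59.9 for Pcl. No Kc167 or S2 list had a peak over it, of a protein or a mark. H3K27ac peaks in the gene body were absent from Kc167 and S2, whose H3K27ac peaks in the window all lay over dco. H3K27ac moved with this stack of low folds between the lines, and its part in it was not tested.

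At a place beyond the upper end, chr3R:31086503-31086601, Pho led, with folds of 8.14 (D17), 20.5 (Kc167) and 19.1 (S2), ranks 210 of 2540, 197 of 6016 and 149 of 2984. In each line this was the strongest Pho peak of the window. Ph, Pc and Psc stood beside it in Kc167 and S2, and Ph was not listed there in D17.

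Engrailed, the homeodomain protein of posterior compartments, was profiled in D17 only. Its peaks missed the windows of D and SoxN. The strongest was at the lower end of Sox100B, with a fold of 5.56 at percentile 89.1.

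Sox14 (chr2R:23978801-23985177), which is induced by the steroid hormone ecdysone and is needed for sensory neurons to prune their dendrites, was the one member with H3K4me3 at an end. H3K27ac over its lower end had a fold of 7.49 in D17, 10.3 in Kc167 and 5.17 in S2, at percentiles of 99.0, 99.4 and 88.6. These peaks were wide, 7.01, 8.13 and 5.18 kb, ranks by width of 43 of 12299, 179 of 6822 and 148 of 10392. The Kc167 peak also spanned mr and PPP1R15, which are among 9 other coding genes in the window of Sox14. H3K4me3 at that end had a fold of 4.80 in D17 and 4.98 in S2, low for its lists at percentiles of 17.6 and 20.6. H3K36me2 covered 81.2% of the body in S2 (1 of 8 members at 50% or more, background 43.8%) and 0.0% in D17 (0 of 8, 15.0%). A peak number is skipped over all of Sox100B in the S2 list of this mark and over part of it in the D17 list.

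Ph, Psc, Pho, Spps and TrxC had summits at the same end of Sox14 in each line, and GAF in D17 and S2, where it was profiled, within chr2R:23978432-23978704. GAF had a fold of 25.3 in D17 and 30.2 in S2. The Spps folds were 7.84 (D17), 9.37 (Kc167) and 14.9 (S2), and those of Ph 4.67, 6.20 and 6.40. Pc had a fold of 2.66 in Kc167 at percentile 81.3 and a lower one in S2 at percentile 55.0, and was not listed in D17. H2AK118ub1 covered 92.3% of the body in D17, 93.4% in Kc167 and 80.7% in S2, with no H3K27me3. Its folds, 1.50, 1.53 and 1.54, were near the lowest deposited value of 1.5 and stood at percentiles of 1.08, 19.1 and 26.6. Across the family, 7 of 8 genes had H2AK118ub1 over at least 50% of the body in D17 (background 26.3%), all but Sox102F. In Kc167 2 of 8 did, Sox14 and Sox15 (9.87%), and in S2 6 of 8 (11.3%). The Kc167 list has skipped peak numbers in stretches over most of Sox102F and over the lower end of Sox15.

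Sox15 (chr2R:14201390-14212413), which limits wingless expression in the wing hinge and acts in the socket cells of bristles, lies in a crowded stretch with Sdb, VGAT, RpS23 and CG8468. H3K27me3 covered 100.0% of its body in D17 and in Kc167, in peaks of 15.8 and 19.1 kb. The S2 list had none, but it skips 1 peak number between chr2R:14047515 and chr2R:14271653, so a peak may have been removed there and an absence cannot be read. In S2 Pc covered 63.4% of the body and H2AK118ub1 59.9%. In D17, H2AK118ub1 on Sox15 had a fold of 2.34 at percentile 99.2, in a peak of 17.6 kb. As at Sox100B, the D17 TrxC list had a wide peak here, 19.2 kb from inside the gene to 22.1 kb above its lower end, rank 35 of 5555 by width, with a fold of 5.53. In Kc167 and S2 the widest TrxC peaks were 1.73 and 0.513 kb.

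Sox15 had sites in the body, at chr2R:14208387-14208475, and next to its upper end, at chr2R:14212628-14213019. At the one in the body, D17, Kc167 and S2 gave Pho folds of 3.16, 3.12 and 11.0 and Ph folds of 3.13, 3.06 and 9.11. At the one by the upper end they gave Pc folds of 5.44, 9.49 and 3.17. H3K27ac in the window lay mainly over the ribosomal protein gene RpS23, with folds of 6.58, 11.6 and 11.0, and over CG8468. Only in Kc167 did H3K27ac lie on the Sox15 body, where a peak with a fold of 3.13 covered 20.3% of it.

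Sox102F (chr4:800436-834393), related to mammalian SOX5, was the one member on the small chromosome 4. Its window had no H3K27ac or H3K36me3 in any line, and no H3K4me3 in D17 or S2, where that mark was profiled. H3K27me3 covered 9.74% of the body in D17, 62.2% in Kc167 and 100.0% in S2. The D17 peak was 7.11 kb at the lower end. The S2 peak was 37.7 kb and held the whole gene. H2AK118ub1 was listed over 9.30%, 12.6% and 18.5% of the body in D17, Kc167 and S2, mostly around the main PcG site. The Kc167 list skips 1 peak number after its peak there. A peak over the rest of the body may have been removed, so the Kc167 value cannot be read as scarcity.

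That site was present in all lines at chr4:807826-808079, in the gene body. Spps led with folds of 19.1, 26.8 and 51.7 in D17, Kc167 and S2, at percentiles of 97.4, 98.9 and 98.7. Pc had folds of 6.09, 13.5 and 13.2, Ph 5.87, 12.6 and 16.6, and GAF 16.8 in D17 and 32.3 in S2. The D17 Pc list had a higher fold, 7.70, beyond the gene at chr4:841946-845731, where an H3K27me3 peak over fd102C also lay. H3K27me3 overlapped the site in Kc167 and S2 and not in D17, while Pc, Ph, Psc, Pho, Spps and TrxC were listed there in each line. A further place beyond the upper end, at chr4:835608-835991, had Psc folds of 8.16 (D17), 20.2 (Kc167) and 32.5 (S2) and TrxC folds of 4.26, 4.51 and 5.27. Pcl had 11.8 in D17, above Psc, and 6.31 in S2, at percentiles of 95.9 and 98.2, and Pho had a peak there in S2 alone, with a fold of 2.39. It shared with the site between Sox21a and Sox21b that Pcl and TrxC were listed where Pho was mostly not.

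**Figure D5:**
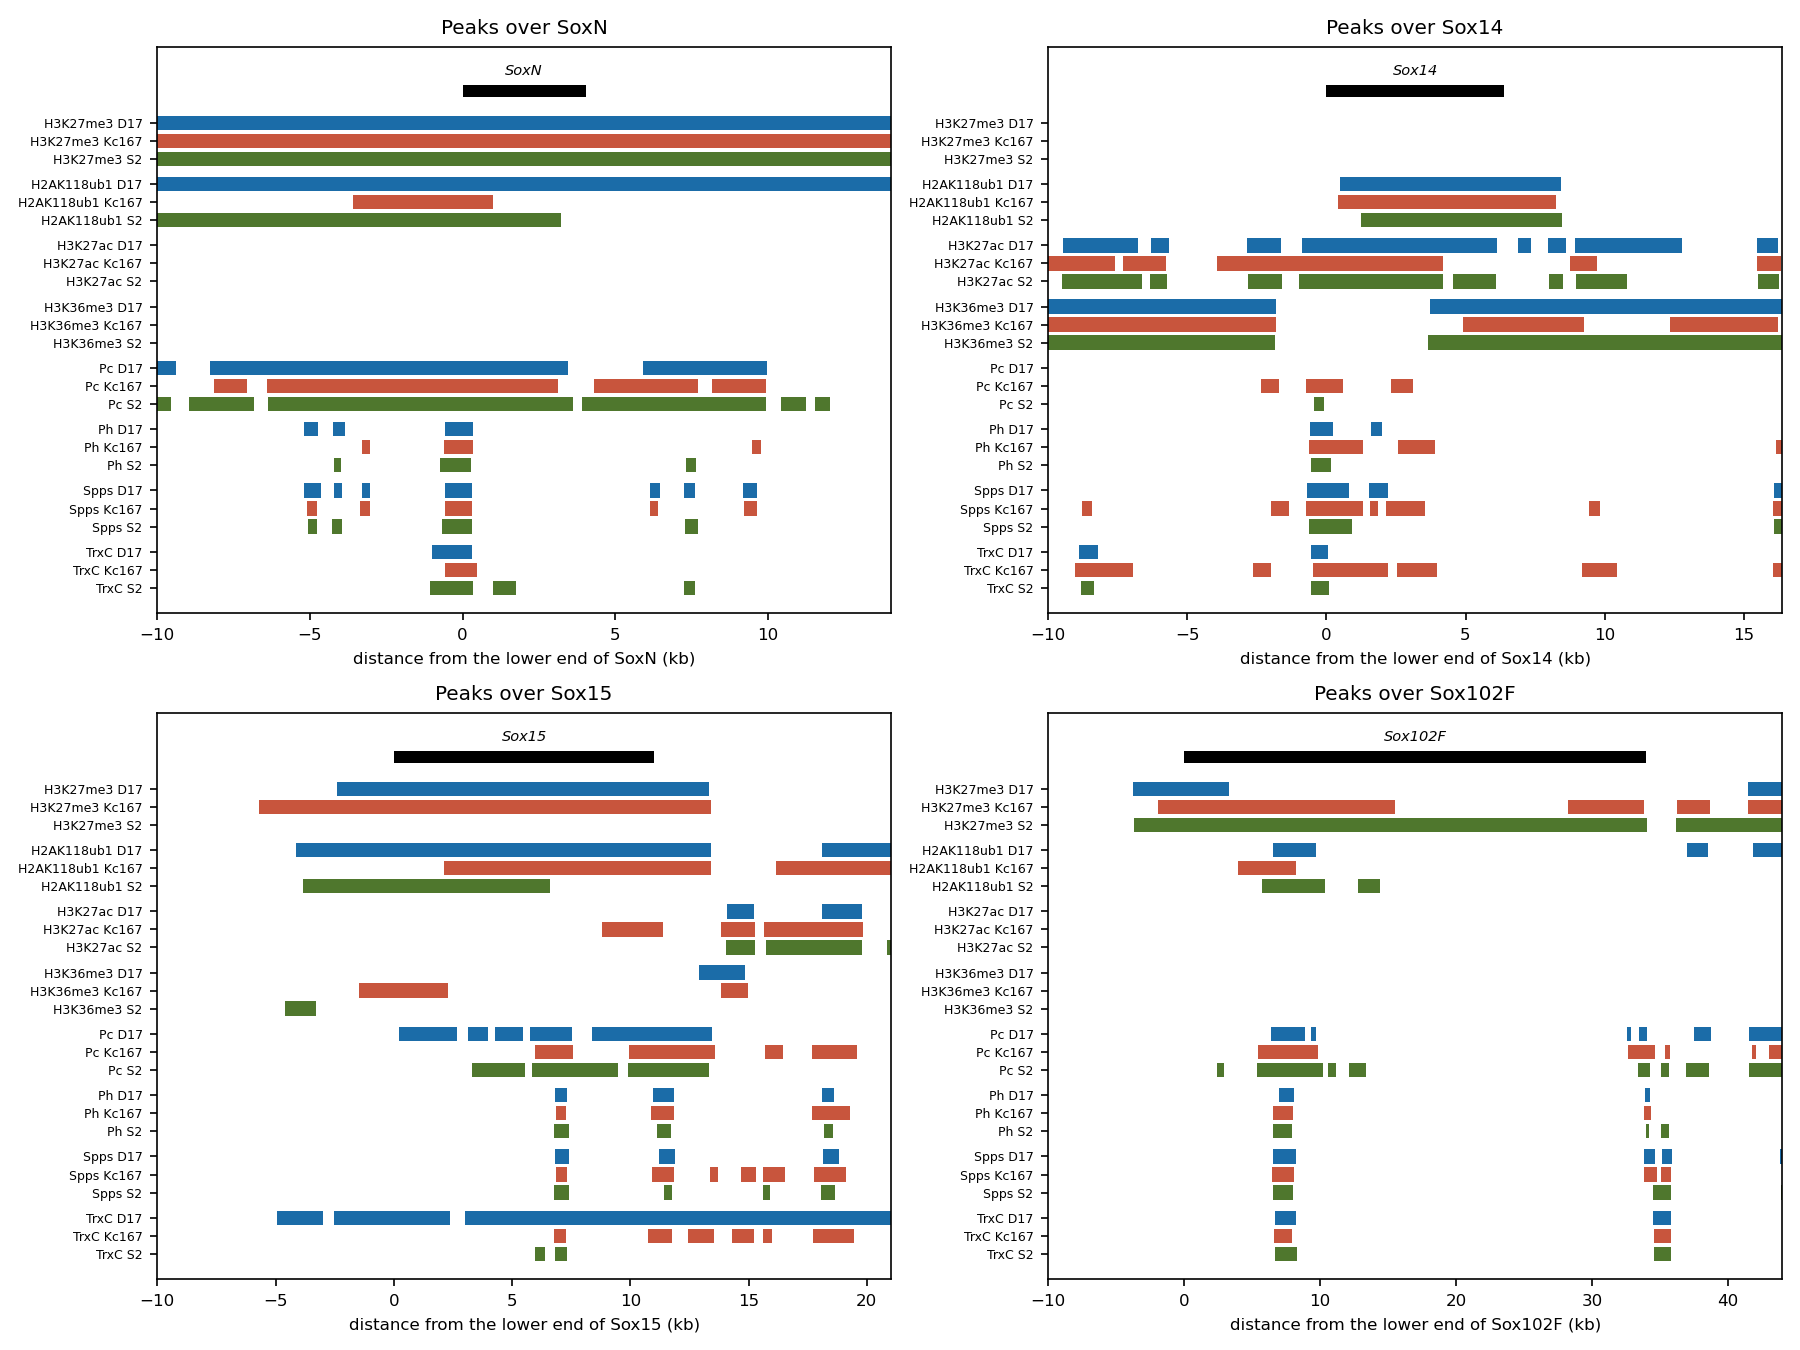
Deposited peaks (bars) over SoxN, Sox14, Sox15 and Sox102F and 10 kb on each side, with distance from the lower end of each gene in kb on the horizontal axes; each row is 1 list, blue for D17, red for Kc167 and green for S2, and gene bodies are black. SoxN lies wholly under H3K27me3, Sox14 under H3K27ac with H2AK118ub1, Sox15 has no S2 H3K27me3 bar, and Sox102F has longer H3K27me3 bars in Kc167 and S2 than in D17, with protein bars at one site in each line.

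Over all windows, counting a place shared by both Sox21 windows once, 34 places had protein summits in all 3 lines, 25 in 2 lines and 59 in a single line. Kc167 had fewer antibodies, so a place in a single line can also reflect what was profiled. At 20 of the places, summits of at least 12 of the 32 protein lists fell together. H3K4me2, which marks both promoters and enhancers, met an end of 6 of 8 genes in D17 (background 56.5%) and 4 of 8 in S2 (49.6%).

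The percentile profile of each gene over the 50 lists was compared with those of 13777 coding genes at least 100 kb away, as a description: lists of one line share cells and lists of one antibody share a reagent. D was most like ems (Pearson's r = 0.964) and caup (0.960), SoxN like Edg84A and Ccp84Ag (0.975 each), Sox21b like grn (0.939) and Abd-B (0.938), and Sox102F like L (0.951) and Dr (0.928). All 8 of these lay under H3K27me3 over 100.0% of the body in every line. The H3K27me3 lists are part of the profile, so this coverage is not separate from the likeness. Sox14 was most like adp (0.873) and CG5742 (0.872), which had 0.0%. Edg84A and Ccp84Ag lie near each other, as do adp and CG5742, and are not separate matches. The nearest genes to the other members were less alike: Wnt4 (0.790) and Daao2 (0.775) for Sox21a, dac (0.756) and TER94 (0.755) for Sox100B, and Cdc16 (0.714) and tey (0.692) for Sox15. Of these, Daao2 and dac had 100.0% under H3K27me3 in every line and tey at least 96.5%. Wnt4 had 78.4% in S2 and 0.0% in D17 and Kc167, and TER94 and Cdc16 had 0.0%. Within the family the closest pair was Sox21b and Sox102F, on different chromosomes, at r = 0.934. D and SoxN stood at 0.887. Sox14 had r between -0.306 and 0.207 with the other members.

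Genes that work with the family were marked unevenly. Of 9 other HMG-box genes, which include chromatin proteins such as HmgD and Ssrp, 0 lay under H3K27me3 over at least 50% of the body in any line. A peak number is skipped at pan in D17 and Kc167. In D17, Kc167 and S2, 8, 9 and 9 of the 9 genes had H3K27ac at an end, against 54.8%, 53.5% and 52.1% of coding genes. Of 16 neural genes that act with D and SoxN, 7 lay under H3K27me3 in D17, 11 in Kc167 and 7 in S2. Those that differed between lists included the neuroblast factor wor, covered over 100.0% of its body in D17 and Kc167 and 0.0% in S2. The neuroblast polarity gene mira had 0.0% in D17 and 100.0% in Kc167 and S2. The columnar genes vnd and ind passed 50% in Kc167 only, at 100.0% and 66.6%, with 47.3% of vnd in S2, as did sli, the midline repellent, at 75.9%. In D17, vnd, ase, ac, sc and l(1)sc touch a stretch with a skipped peak number, so their 0.0% there cannot be read as an absence.

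Of 11 ecdysone genes around Sox14, 0 lay under H3K27me3 in D17, 4 in Kc167 and 3 in S2. The hormone-induced factors Eip93F, Hr3 and Hr4 had 63.5%, 71.1% and 55.8% in Kc167 and 66.8%, 69.7% and 61.3% in S2. The early gene br had 66.0% in Kc167 and 0.0% elsewhere. Of 9 Wingless genes around Sox15 and Sox102F, 2 lay under the mark in D17, 5 in Kc167 and 2 in S2. The pathway's feedback genes nkd, fz3 and Notum passed 50% in Kc167 only, at 100.0%, 100.0% and 85.2%, with 26.1% of nkd in S2. Numbers are skipped at fz3 in D17 and at pan in D17 and Kc167. Of 10 gut and gonad genes with a match, 6 lay under it in D17, 7 in Kc167 and 5 in S2. The cytokine gene upd3 was covered by 58.6%, 100.0% and 0.0% in D17, Kc167 and S2, the gut factor GATAe 92.6%, 100.0% and 0.0%, and the gonad factor tj 0.0%, 100.0% and 100.0%. Of the 8 blood cell genes, eater was covered in Kc167 only (80.8%) and NimC1 in S2 only (62.6%). Each of these counts of genes under H3K27me3 reads against the backgrounds of 7.65%, 15.4% and 16.1%. The lists were chosen by role, not drawn from the same group of genes, so no difference between them was tested.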

How the data were processed

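Peak lists were used as the authors deposited them; reads and expression were not analysed here. Per the submitters' processing notes, tools included Trim Galore 0.6.4, Bowtie2 2.3.5.1, SAMtools 1.13, bedtools 2.29.2 and MACS2 2.2.6, with BDGP6 (dm6) as the genome. Of the deposited columns, the fold enrichment (a ratio), the score and the significance, as −log10 of a q-value, were used with the summit positions of narrow peaks. How replicates and inputs entered each list is not given in the sources used here. Of the lists, 39 are narrow and 11 broad, with no fold under 1.5, and 0 columns were without a group. Some peak numbers are skipped, so peaks may have been removed; 19 of 400 pairs of a gene and a list touch such a stretch.

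Gene positions came from the RefSeq table of the matching assembly (Release 6 plus ISO1 MT), which has no strand, so either gene end stood in for the start. Overlap meant at least 1 bp. PcG sites were merged within 1 kb. Percentiles, coverage and correlations were computed with Python 3.11.15, NumPy 2.4.6 and pandas 2.3.3, and figures drawn with matplotlib 3.10.9. On simulated data, 200 of 200 genes with planted peaks, 200 of 200 planted coverages and 100 of 100 planted PcG sites were recovered.

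The members and gene lists were chosen with earlier results of these data known. All members were named, with some of their neighbours, the 2 genes most like each, and listed genes covered in 1 or 2 lines. Listed genes covered in all 3 lines are otherwise given as counts. Places summed from summits within 500 bp were chosen after seeing the data. Alternatives were other flanks, coverage thresholds, site definitions and list lengths. No gene or protein sequence was used here, so promoter motifs and protein comparisons were not run.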

Additional observations from a re-analysis of the deposited data

How the results depend on the processing

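Counts were recomputed under each alternative, and most moved by under 1.5 times. For genes with at least 50% of the body covered, a threshold of 20% gave 5 genes for H2AK118ub1 in Kc167 in place of 2, and for H3K36me3 1 in D17, 2 in Kc167 and 1 in S2 in place of 0. A threshold of 80% gave 2 for H2AK118ub1 in S2 in place of 6. For H3K27me3 that threshold left 5 genes in D17 and 5 in Kc167, without Sox100B and Sox102F, and 4 in S2, without Sox100B and Sox21a. Over the body plus 10 kb, H2AK118ub1 covered 1 gene in Kc167 and 1 in S2, and H3K36me3 covered 1 in each line. With genes at skipped peak numbers left out, an alternative chosen after seeing the data, H2AK118ub1 in Kc167 counted 1. With the higher-scoring 50% of each list it also counted 1, and genes with a mark at an end fell to 1 for H3K27ac in D17 and in Kc167, 0 for H3K4me3 in D17 and in S2, and 1 for H3K4me2 in S2. PcG sites with peak centres within 500 bp gave 4 genes in S2 in place of 7.

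For genes with a peak in the window, no flank gave 1 for each of H3K36me2, H3K36me3 and TrxN in D17 and for H3K27ac, H3K36me2, H3K36me3 and H3K4me3 in S2, 3 for S2 Rad21 and 4 for S2 TrxN. A flank of 5 kb, and peak centres inside the window, each gave 2 for S2 H3K36me2, and centres gave 4 for Kc167 H3K27me3. The higher-scoring 50% of each list gave 5 for E(z) and GAF and 1 for H3K36me2 in D17, 4 for Kc167 H2AK118ub1, and 3 for H3K4me2 and Rad21 in S2. Lists of equal length lowered 7 of the 50 counts, none by over 1.5 times. The causes were not tested.

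No paired analysis was possible because the lists hold no values per replicate, and leaving out a replicate could not be run. Promoter motifs and protein identities were not run. Depth is unknown, so a missing peak is no evidence that a protein or mark was absent.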

Other observations

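Wide TrxC peaks in D17 stood at the same genes as the strongest H2AK118ub1 peaks of the family. Sox100B and Sox15 had D17 TrxC peaks of 18.8 and 19.2 kb and D17 H2AK118ub1 folds of 2.36 and 2.34, at percentiles of 99.3 and 99.2. The other members had D17 TrxC peaks of 0.448 to 1.56 kb at the widest. The TrxC peak of Sox100B, chr3R:31082288-31101089, lay almost wholly inside a D17 H3K27me3 peak, chr3R:31082353-31195925, that covered 5.81% of the gene body. D17 H3K27me3 covered 100.0% of the body of Sox15. H3K27ac was listed in the D17 windows of both, on the body for Sox100B and on neighbours for Sox15.

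Sites of the family differed in whether Pho was listed with the other proteins. At chr3L:14111610-14111636, between Sox21a and Sox21b, Pho had no peak in any line, while TrxC had one in each, at percentiles of 99.7 (D17), 99.9 (Kc167) and 99.8 (S2). At chr4:835608-835991, beyond Sox102F, Pho was listed in S2 only. At the leading sites of SoxN, D and Sox21b, Pho was listed in each line. These sites were picked after their values were seen.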
